A study of Mus musculus with 6 samples.

Results

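The C2C12 peaks deep in introns were peaks called for YTHDC1 whose position lay in intron sequence, away from the exons of the host gene. A peak of C2C12 replicate 1 was counted when it shared at least 1 nt with a same-strand peak of replicate 2, its centre lay inside a protein-coding gene of mm9 (GENCODE vM1) on the strand of the RNA, it lay in no annotated exon of any gene, and it was more than 200 nt from the nearest exon edge of the host gene. This rule selected 5305 of the 29087 replicate 1 peaks that were also called in replicate 2, or 18.2% (95% Clopper-Pearson interval 17.8 to 18.7). LACE-seq was used to map where YTHDC1 contacts RNA: cells are irradiated with UV light, YTHDC1 is immunoprecipitated with the RNA fragments crosslinked to it, and reverse transcription stops at the crosslinked nucleotide. C2C12 is an established line of mouse myoblasts, and its 2 libraries are numbered as biological replicates in the labels, whereas the study's text calls them technical replicates. Agreement between them may therefore be technical only. Both are labelled WT, with no treatment beyond the UV light. The other 4 libraries came from ASC48, mouse satellite cells activated for 48 hr in culture, as technical pairs of 2 biological replicates, and they were used here only to ask whether the same positions were called there.

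YTHDC1 is the nuclear reader of N6-methyladenosine (m6A) and acts in splicing and nuclear export of mRNA. m6A is placed on the A of a 5-nt consensus called DRACH, in which the first base is A, G or U, the second A or G, the third A, the fourth C and the fifth A, C or U. Intron sequence is found in RNA that is not yet spliced, in transcripts that keep an intron and in excised lariats, and these were not told apart here. Long introns are also rich in interspersed repeats and in copies of processed RNAs, whose reads can be placed at more than 1 position. No library of total or input RNA was used here, so more binding and more pre-mRNA of a gene cannot be told apart in these counts.

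C2C12 replicate 1 held 60540 peaks with 523067 reads in them and replicate 2 held 71992 peaks with 607366 reads. The deposited lists give each peak its number of reads per 20-nt bin, a mean over the bins where a peak is wider. The lowest number listed was 6 in both libraries. The total depth of the libraries is unknown, and intervals and tests across peaks cover counting error only. Among all replicate 1 peaks 13817 met the position rule, and 38.4% of these were found again in replicate 2. Among all replicate 2 peaks 17626 met it, and 30.04% were found again in replicate 1. On the opposite strand, with the same position rule, 1170 shared peaks were counted, so that 81.9% of the shared deep intron peaks of both strands lay on the strand of the gene's RNA.

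The members differed in how often their sequence occurs in the genome. The first 20 nt of 3487 members occurred a single time in mm9 on either strand, those of 618 members occurred 2 to 9 times, those of 566 occurred 10 to 99 times, and those of 634 occurred 100 times or more. A run of at least 10 G on the strand of the reads lay within 20 nt of 191 members. The 3415 members that had neither a second copy nor such a run, 64.4% of all, are called single-copy below. Of these, 2819 had no 20-mer, in the peak and 20 nt either side, that occurred more than 5 times, and these are called single-copy with low-copy flanks, a group added after the data were seen. Among single-copy peaks of both strands 94.1% lay on the strand of the gene's RNA.

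The highest single-copy members are shown first because they are the intron positions with the most reads. Each line gives 30 nt of the RNA strand around the peak centre, 5′ to 3′, with T for U, and capitals mark DRACH matches.
Hoxc6, chr15:102837896-102837925, plus strand: gttttttctcctcctacctcttgccctgta
Cd80, chr16:38476436-38476465, plus strand: aaatacaacaaatctttggccgcatgccct
Nedd4, chr9:72583956-72583985, plus strand: gtgaatagtttttcacctgcatgtatgcct
Cntnap5a, chr1:118363116-118363145, plus strand: tatagaaatgaagctaatggggctggagag
Herc2, chr7:63319776-63319805, plus strand: TGACTccttcactatcgcttctcggccttt
S100a10, chr3:93359796-93359825, plus strand: aaTGACTGACCtctttcctagccctgcctg
Ddx39b, chr17:35387036-35387065, plus strand: gaagaggtttctgTGACCctgccttggtcc
Grik3, chr4:125181316-125181345, plus strand: gcagaaggagagcagcgccttggaggtccc
Lhfp, chr3:52881816-52881845, plus strand: cctgtgctgctcactcattggctgagtgcc
Synj2, chr17:6039676-6039705, plus strand: tggccattttgcctgGGACAtgccactctt
A DRACH match lies within these 30 nt in Herc2, S100a10, Ddx39b and Synj2 and in none of the other 6. All 10 lie in genes transcribed from the plus strand, a point taken up with the strand comparison.

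The highest member was in intron 2 of Hoxc6, a homeobox transcription factor, with 32 reads per bin in replicate 1 and 31 in replicate 2, 1999 nt from the nearest exon edge. Intron 2 of the same gene held another peak with 19 and 20 reads. Cd80, a co-stimulatory ligand of T cells, had 30 and 31 reads in its intron 2. In this gene 3 other members had their first 20 nt in Setd8 transcripts. RefSeq places the pseudogenes Gm8590 and Ck-ps3 inside Cd80, and whether they cover the intron 2 peak was not tested. The peak of S100a10, the S100 protein that pairs with annexin A2, had 23 and 25 reads, 678 nt into intron 1. In Ddx39b, the helicase that loads export factors onto mRNA, the peak in intron 6 had 26 and 20 reads. In Synj2, an inositol phosphatase, it had 24 and 20 reads in the last intron, and in Lhfp 24 and 21 reads, 34218 nt from the nearest exon. The libraries differed in these 6 peaks by at most 6 reads per bin. In all 6 the 20-mers of the peak and its flanks occurred at most 3 times in mm9.

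The other 4 of the 10 carried repeated sequence just outside the 20 nt that defined them as single-copy. Around the peak of Nedd4, an E3 ubiquitin ligase, with 27 and 28 reads, a 20-mer occurred 34 times. A 20-mer at the Cntnap5a peak, with 24 and 25 reads, occurred 25053 times in mm9, and the same most frequent 20-mer count was found at the members in Usp47, Rad51l1 and Klhdc10, which had 28 and 31, 29 and 27, and 26 and 26 reads. The Herc2 peak, with 24 and 25 reads, shared a 20-mer with annotated U2 snRNA genes, and the Grik3 peak, with 27 and 19 reads, shared one with the spliced transcript of Ftl1, the ferritin light chain. In Grik3, 4 members had their first 20 nt in Ftl1 transcripts.

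A further 4 peaks entered the highest 10 when low-copy flanks were required. They lay in Wapal, a cohesin release factor, with 20 and 23 reads, in Map4k4, a kinase, with 23 and 17, in U2af2, the large U2AF subunit that recognizes 3′ splice sites, with 26 and 14, and in Ttyh2, a membrane protein, with 26 and 13. The mean of the last of these, 19.5 reads, was also that of the second Hoxc6 peak. In U2af2 and Ttyh2 replicate 2 was far below replicate 1, and their place in this order comes from replicate 1.

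Across all members the number of reads was low and its range narrow. It ran from 6 to 32 in replicate 1 with a median of 7, and from 6 to 31 in replicate 2 with a median of 8. In 86.6% of members the libraries were within 1.5-fold of each other, and 55 members were more than 2-fold apart. The largest ratio was at a peak in intron 8 of the pyruvate kinase gene Pkm2, with 22 reads in replicate 1 and 6 in replicate 2, followed by Cd80 (intron 4, 20 and 7 reads), Rbbp6 (6 and 17), Galnt11 (7 and 19) and Jmjd1c (6 and 16). The log2 reads of the libraries correlated with a Pearson r of 0.519 over the 5305 members, which is a description across peaks chosen for being called in both lists. At the threshold of the rule, the members nearest to it lay 201 nt from an exon edge in Itga7 (16 and 17 reads), 2010111I01Rik (7 and 6) and Anapc7 (7 and 7), and the nearest peaks outside it lay at 200 nt in Peli2 (8.5 and 9), Fam48a (9 and 6) and Sfswap (10 and 12).

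**Figure D1:**
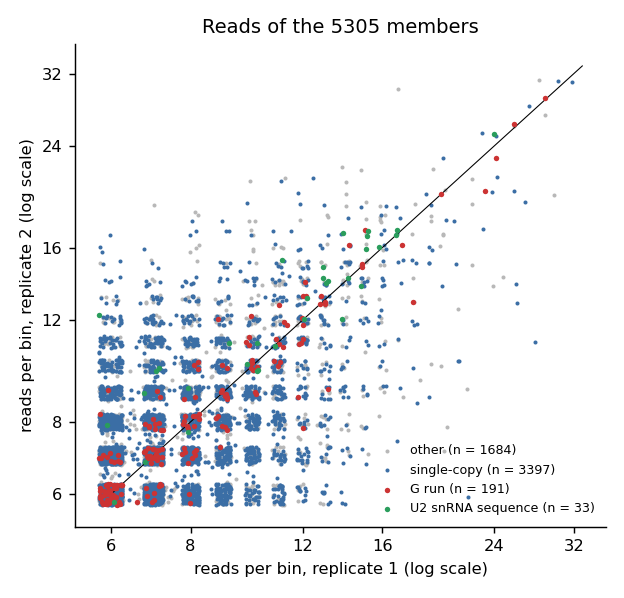
Reads per 20-nt bin of the 5305 members in replicate 1 (x axis, log scale) and replicate 2 (y axis, log scale), with a small random shift so that equal values do not hide each other. The line marks equal values, and the single-copy points leave out those with a U2 snRNA sequence. The members on G runs (191) and those with a U2 snRNA sequence (33) lie nearer to the line than the single-copy members.

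Deep intron peaks were compared with the other shared peaks on the RNA strand of protein-coding genes, which were 474 intronic peaks within 200 nt of an exon, 8097 peaks in coding exons and 3773 in 3′ UTRs. Over single-copy peaks the geometric mean of the reads of both libraries was 7.95 per bin in deep introns, 8.15 near splice sites, 8.49 in coding exons and 8.50 in 3′ UTRs. The difference from coding exons was -0.09 on the log2 scale (permutation test over peaks with 100000 resamples, two-sided, adjusted p = 1.5e-05 over 6 comparisons, from the smallest p that the resamples can give) and that from 3′ UTRs was -0.10 with the same adjusted p. The difference from peaks near splice sites was -0.03 (permutation test, adjusted p = 0.058). These are shifts of under 1 read in values that start at 6. All these peaks were kept because their reads passed the call in both libraries. The tests therefore compare only reads above the call limit, treat peaks of 1 gene as independent, and do not measure strength of binding. In the 554 genes that had single-copy peaks of both kinds, the deep intron peaks had fewer reads than the coding exon peaks in 333 genes and more in 210, with a mean log2 difference of -0.10 ± 0.015 (SE, sign-flip permutation test, p = 1e-05, the smallest that 100000 resamples can give). The share of replicate 1 peaks found in replicate 2 was 38.4% in deep introns and nearly the same near splice sites, 38.6%. It was 47.7% in 3′ UTRs and 49.8% in coding exons.

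The strand of the RNA moved with these values. GENCODE vM1 has 11176 protein-coding genes on the plus strand and 11204 on the minus strand, but 2072 single-copy members (60.7%) lay on plus-strand RNA and 1343 on minus-strand RNA. Reads reached 32 in replicate 1 on the plus strand and 17 on the minus strand. A mean of at least 15 reads was reached by 64 single-copy members on the plus strand and by 1 on the minus strand. Peaks wider than 1 bin made up 2.32% of the plus-strand and 8.71% of the minus-strand single-copy members. Coding exon peaks showed the same order, with 58.8% of single-copy peaks on the plus strand and highest values of 46 and 18 reads in replicate 1. Which end of a read was binned is not given in the sources used here, and its part in this difference was not tested. Within the plus strand the deep intron minus coding exon difference in log2 reads was -0.14, and within the minus strand it was -0.03 (permutation tests, p = 1e-05 and 0.0003).

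The members lay in 2016 genes, which are 9.01% of the 22380 protein-coding genes of the annotation, and in 2667 introns. They were unevenly spread: 1273 genes held 1 member, 655 held 2 to 9, and 88 genes held 10 or more, which together had 1802 members or 34.0% of all. The host genes were long, with a median length of 68928 nt against 15421 nt over all protein-coding genes. Longer genes offer more sequence that can meet the rule, and genes without such sequence cannot be hosts. This difference therefore cannot be separated from the rule. Single-copy members lay in 1188 of the 2016 genes, and members with low-copy flanks in 961. The remaining genes were hosts only through repeated sequence or G runs, whose reads may come from elsewhere. In 1133 host genes no shared peak lay in a coding exon or 3′ UTR, which is 56.2% of the host genes. This share includes hosts without a single-copy member, and it was not computed without them. The next member in the same intron was at a median distance of 740 nt, and 445 of the 2638 such gaps were at most 100 nt.

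Ext1, a glycosyltransferase that elongates heparan sulfate chains, held 198 members, and no other gene held more than 50. Of these, 185 lay in intron 1 (chr15:53027811-53175956, minus strand), which is 148146 nt long, or 12.5 members per 10 kb. They ran from 266 nt to 147206 nt from the 5′ splice site, with a median at 53946 nt. Their reads ran from 6 to 14 in replicate 1 with a median of 7, and from 6 to 15 in replicate 2 with a median of 8, and their medians were those of all members. Replicate 1 alone had 356 peaks in Ext1 by the position rule and replicate 2 had 429. Of the 198 members 179 were single-copy, whereas 13 shared peaks lay in its coding exons and 2 in its 3′ UTR. No Ext1 member was among the ASC shared peaks.

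The gene 2010111I01Rik, named Aopep in RefSeq and an aminopeptidase, held 50 members, of which 28 lay in intron 13 and 6 in intron 17, which carries Mir23b and Mir27b. Runx1, a transcription factor, held 47, with 33 in intron 2, and Ski, a repressor of SMAD signalling, held 47, with 44 in intron 1. Map4k4 held 42, Hmga2, an architectural chromatin protein, held 40 with 36 in intron 3, Nedd4 held 33, and Lpp, a focal adhesion protein, held 32. In these 7 genes between 29 and 46 members were single-copy, and the highest value in either library was 28 reads, in Nedd4. Shared peaks in coding exons numbered between 0, in 2010111I01Rik, and 10, in Nedd4. The genes were chosen for their many members, so the excess of deep intron over coding exon peaks follows from that choice. None of these 7 genes had a member among the ASC shared peaks.

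Gm20388, also among the 10 genes with most members, is a gene model of 4434882 nt on chromosome 8 whose intron 1 spans 4384418 nt, and all of its 45 members lay in that intron. Gm20388 had no single match in RefSeq, and the distances inside it are those of this model. The 5 members farthest from an exon edge of their host gene were all inside this intron. They lay between 2030967 and 2033707 nt away, with 7 to 15 reads in replicate 1 and 6 to 14 in replicate 2. The sequences of 4 of them are shown with DRACH matches in capitals, because these peaks head the order by distance.
Gm20388, chr8:124785536-124785565, plus strand: ccccaaatgtcaccccagggggccctcagc
Gm20388, chr8:124785816-124785845, plus strand: gctatcaatccgAGACAgccaaagccttcc
Gm20388, chr8:124788196-124788225, plus strand: gctgctggaggaaatttctccggtgctgcc
Gm20388, chr8:124788276-124788305, plus strand: cctcgGAACAgacggtgcctccccgccctc
Outside this model the deepest member was in Fgfr2, 1191269 nt from an exon edge with 7 and 9 reads, and the next lay in Arfip1, Accn1, Arfip1 again and Cadm2. In all 5 of these a 20-mer of the peak or its flanks occurred at least 498 times in mm9, and the Fgfr2 peak shared 1 with U2 snRNA genes.

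By density along an intron, compared only among the introns with most members, other genes led. Intron 11 of Ddx17, an RNA helicase, held 23 members in 4042 nt, or 56.9 per 10 kb, and all 23 had a first 20 nt found a single time in mm9. Intron 1 of Zc3h11a, a zinc finger protein of mRNA export, held 31 members in 7204 nt, or 43.0 per 10 kb, again all found a single time. RefSeq places a protein-coding gene, Zbed6, inside Zc3h11a that GENCODE vM1 does not have, and whether its exons cover these peaks was not tested. Intron 2 of 2610203C20Rik held 19 members in 8817 nt. Ski had 13.2 per 10 kb in intron 1, above the 12.5 of Ext1. Median reads in Zc3h11a were 8.33 in replicate 1 and 8.50 in replicate 2, and in Ddx17 they were 8 in both.

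Other dense introns held repeated sequence. Of the 66 introns with 10 or more members, 38 had a first 20 nt found a single time in at least 80% of their members and 10 in none. Intron 1 of Galnt11 held 22 members within 11460 nt, intron 1 of Ctse held 21 within 5460 nt, and intron 2 of Prkaa1 held 19 within 1880 nt. The density over the whole Prkaa1 intron was 47.9 per 10 kb, between those of Ddx17 and Zc3h11a. No member in these 3 introns had a first 20 nt found a single time. In Osbpl8 18 members lay within 1120 nt of intron 2 and 1 of them was found a single time. Median reads in these introns were 9 to 10 in replicate 1 and 9 to 12 in replicate 2.

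**Figure D2:**
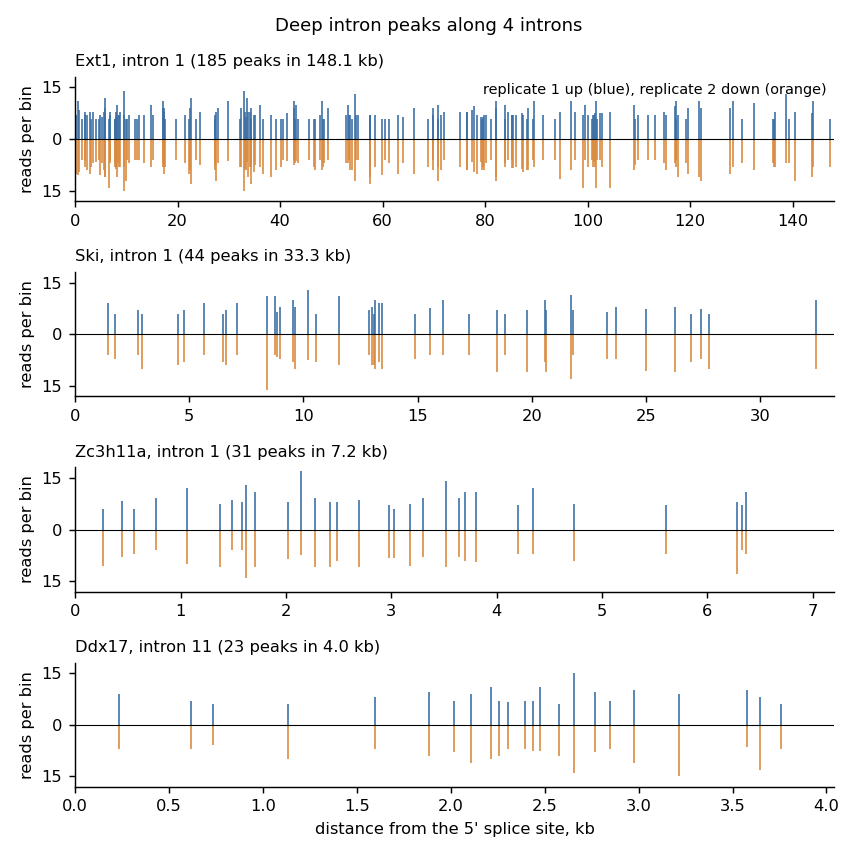
Members along intron 1 of Ext1, intron 1 of Ski, intron 1 of Zc3h11a and intron 11 of Ddx17; the x axis is the distance from the 5′ splice site in kb, and each line is 1 peak with its reads per bin in replicate 1 upward and in replicate 2 downward. The 185 Ext1 peaks are spread along 148146 nt and the 23 of Ddx17 along 4042 nt, and no line passes 17 reads.

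The chromosomes were unequal as well. Chromosome 15 held 625 members, 11.8% of all, or 19.2 per Mb of the deep intron sequence of its protein-coding genes on both strands, whereas the other chromosomes held between 2.27 (X) and 8.39 (17) per Mb with a median of 5.63. Without Ext1, chromosome 15 still held 13.1 per Mb, above every other chromosome. Over single-copy members it held 15.5 per Mb against at most 5.15 elsewhere. Coding exon peaks were also most frequent on chromosome 15, with 448 per Mb of coding sequence against a median of 233 and a highest other value of 359. Ddx17, Asap1, Mtss1 and Prkaa1 are on this chromosome too. The number of chromosome copies and the expression of these genes in this line were not analysed here, and their part in this result was not tested.

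**Figure D3:**
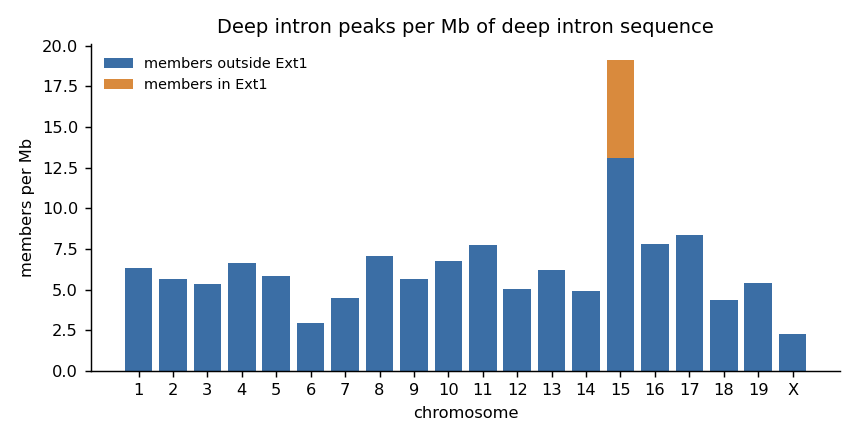
Members per Mb of deep intron sequence of protein-coding genes for each chromosome, with those in Ext1 stacked in a second colour. Chromosome 15 reaches 19.2 per Mb and 13.1 without Ext1, and the others lie between 2.27 and 8.39.

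Within genes, members lay toward the 5′ end. First introns held 1699 members, 32.03% (30.8 to 33.3), and made up 19.6% of the deep intron sequence of the same host genes, or 36.2 members per Mb. The density was 26.04 per Mb in second introns, 21.03 in introns numbered 3 and 16.5 in later ones. Without Ext1 the share in first introns was 29.6%. Within single introns the density fell from 29.97 per Mb in the 10% of the intron next to the 5′ splice site to 10.9 in the 10% next to the 3′ splice site. Upstream of the intron's midpoint lay 3298 members, 62.2% (60.8 to 63.5), where 50.01% of the available sequence lay. This share was 64.9% over single-copy members, 62.5% on plus-strand RNA and 61.7% on minus-strand RNA. It rose with the length of the intron, from 48.7% of the 302 members in introns under 2 kb, whose interval of 42.9 to 54.5 includes equal shares, over 54.5% at 2 to 10 kb and 61.1% at 10 to 50 kb, to 74.6% of the 1452 members in introns over 50 kb. Density also fell with distance from the nearest exon, from 37.0 per Mb at 201 to 500 nt to 11.4 per Mb beyond 20000 nt. The genes were chosen by holding a member, so densities are within these host genes only.

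**Figure D4:**
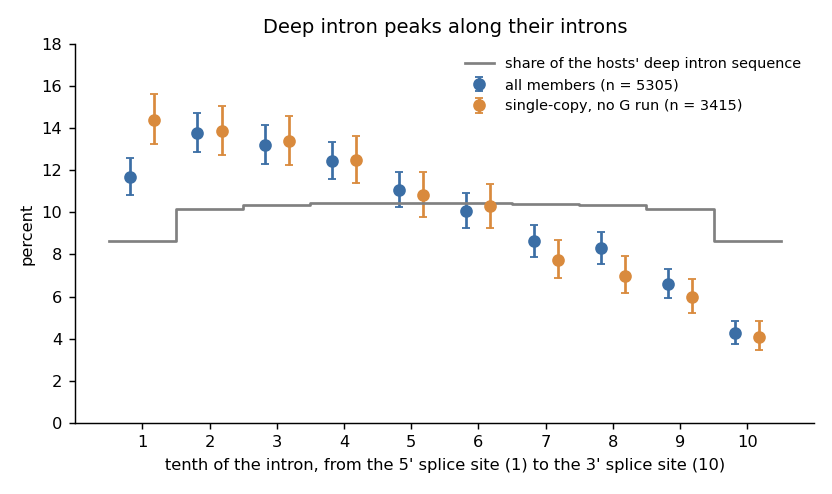
Share of members in each of 10 equal sections of their intron from the 5′ splice site to the 3′ splice site, in percent, for all members and for single-copy members, with 95% Clopper-Pearson intervals; the grey line is the share of the host genes' deep intron sequence in each section. The shares fall from 11.7% and 14.4% in the first section to 4.26% and 4.10% in the last.

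A DRACH match lay in the 60 nt around the centre of 63.1% of members (61.8 to 64.4). The share was 59.7% near splice sites, 62.9% in coding exons and 64.6% in 3′ UTRs, and none of these differed from deep introns past the threshold after adjustment over 24 comparisons (Fisher's exact test, two-sided, adjusted p = 0.226, 0.898 and 0.226). The difference from coding exons was 0.12 percentage points with an interval of -1.55 to 1.79. GGAC, the core of the most frequent m6A consensus, was less frequent in deep introns, with 13.4% of members against 23.0% of coding exon peaks (adjusted p = 1.85e-43) and 18.7% of 3′ UTR peaks (adjusted p = 5.41e-11), and 14.8% near splice sites (adjusted p = 0.506, all by Fisher's exact test). Over single-copy peaks the order of GGAC was kept, at 14.8%, 23.6%, 19.2% and 16.1%. These tests count peaks of 1 gene as independent. GGAC was not counted in windows beside the coding exon and 3′ UTR peaks. A difference at the peaks therefore cannot be told apart from one between exon and intron sequence in general.

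Along the same RNA, DRACH was not more frequent at the single-copy members than around them. It was found in 61.7% (60.1 to 63.4) of the 60-nt windows at the centre, in 63.4% of windows 120 nt upstream and in 63.7% of windows 120 nt downstream. GGAC was found in 14.8% at the centre, 15.4% upstream and 15.3% downstream, and GGACU in 5.62%, 5.33% and 4.86%. Farther out, DRACH was found in 62.2% of windows 180 nt upstream and 63.8% of those 240 nt upstream. Downstream it was found in 66.1% (64.5 to 67.7) at 180 nt and 65.8% (64.1 to 67.4) at 240 nt, above the centre. In steps of 10 nt on plus-strand RNA, DRACH starts were fewest 10 to 20 nt downstream of the centre, at 13.5 per 100 peaks against a mean of 17.8 beyond 70 nt, and on minus-strand RNA fewest 10 to 20 nt upstream, at 14.2 against 18.4. Whether the A of any match carried m6A was not measured in these libraries.

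The base composition at the members did differ from that of the RNA around them, and by strand in mirror image. On plus-strand RNA, C rose to 33.8% of bases and A fell to 14.2% at 10 to 20 nt downstream of the centre, against 22.6% and 23.8% beyond 70 nt. On minus-strand RNA, C reached 34.3% and A 15.1% at 10 to 20 nt upstream of the centre, against 22.9% and 23.5%. In both cases the C-rich stretch therefore lay at higher genome coordinates than the centre of the bin. No test was run on this composition, and the values are a description over 2072 and 1343 peaks.

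Of 4096 hexamers, CUGCCU was the one that gained most between windows 120 nt away and the window at the centre, followed by AUGCCU and by the 3 hexamers that begin with UGCCU and end in a base other than A. The 5 leading hexamers therefore shared UGCCU. The first of them, CUGCCU, was found at 11.8% of single-copy members and in 4.45% and 4.54% of the windows upstream and downstream, and AUGCCU at 8.49% against 1.64% and 1.87%. UGCCU itself was found at the centre of 28.6% of single-copy members (27.1 to 30.1), against 10.8% of windows 120 nt upstream and 11.2% downstream. It was chosen from these data and is given as a description. On plus-strand RNA it started most often 0 to 10 nt downstream of the centre, with 12.2 starts per 100 peaks against 2.22 beyond 70 nt, and on minus-strand RNA 10 to 20 nt upstream, with 11.99 against 2.27. Among the highest members with low-copy flanks, 4 of 10 held it in the 30 nt that start at the peak, and these are shown with UGCCU in capitals, written with T.
S100a10, chr3:93359801-93359830, plus strand: ctgacctctttcctagcccTGCCTgggagg
Ddx39b, chr17:35387041-35387070, plus strand: ggtttctgtgacccTGCCTtggtccctggc
Synj2, chr17:6039681-6039710, plus strand: atttTGCCTgggacatgccactcttcatta
U2af2, chr7:5016921-5016950, plus strand: ttttcctgtgtcagcctgccacaTGCCTca

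UGCCU was also frequent at other peaks. It was found at 27.5% of the single-copy deep intron peaks of replicate 1 that replicate 2 did not call and at 27.9% of those only in replicate 2. Single-copy shared peaks held it in 24.4% near splice sites, 18.8% in coding exons and 25.8% in 3′ UTRs, each against 9.29% to 11.7% in windows 120 nt away. Over all deep intron peaks, repeated sequence included, it was found at 24.9% of the C2C12 members and at 11.4% to 14.6% of the peaks of the 4 ASC libraries, against 9.25% to 13.6% in the ASC windows 120 nt away. The difference between C2C12 and ASC was not tested.

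**Figure D5:**
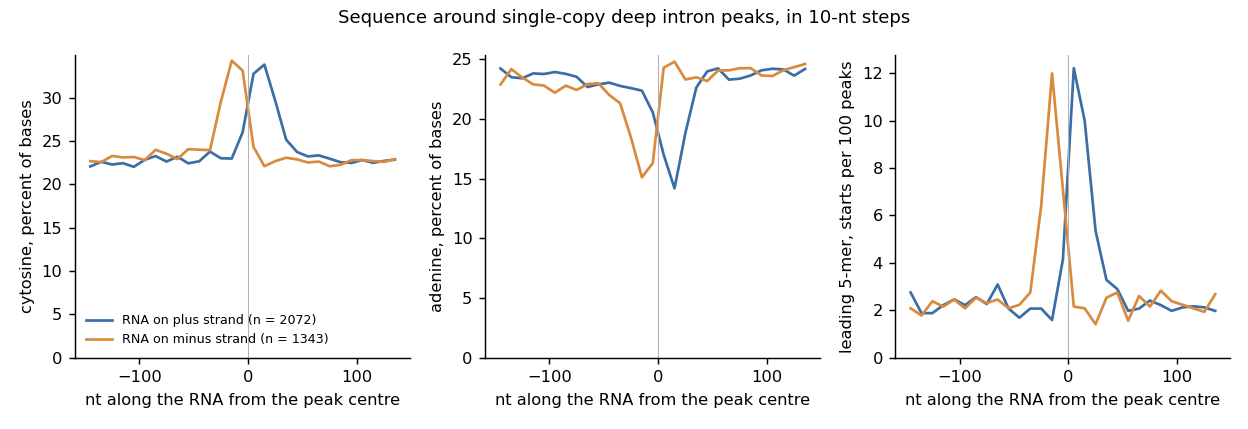
Cytosine and adenine in percent of bases and starts of the 5-mer UGCCU per 100 peaks, in 10-nt steps along the RNA from the peak centre, for single-copy members on plus-strand RNA (2072) and minus-strand RNA (1343). Cytosine and the 5-mer peak downstream of the centre on the plus strand and upstream of it on the minus strand.

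Most members found again in ASC48 lay on G runs. Of the 5305 members, 243 (4.58%, 4.03 to 5.18) overlapped an ASC shared peak, meaning a peak called in both technical libraries of both biological replicates, against 24 of 8097 coding exon peaks, or 0.296% (Fisher's exact test, adjusted p = 1.08e-69), 0.212% of 3′ UTR peaks (adjusted p = 1.06e-45) and 6.96% near splice sites (adjusted p = 0.053). Over all 29087 shared peaks, those outside these classes included, 1521 or 5.23% overlapped one, so the share of the members was near that of C2C12 shared peaks as a whole. Without G runs the shares were 1.17% of members and 3.20% of all shared peaks, and over single-copy peaks 1.08% and 2.23%. These comparisons with all shared peaks are descriptions, since the members are among them. On the list of either replicate alone, 1.87% and 1.498% of deep intron peaks overlapped an ASC shared peak. Of the 243, 183 lay on G runs, and 183 of the 191 members on G runs (95.8%) were found there. Over all shared C2C12 peaks on G runs this share was nearly the same, 612 of 637 or 96.1%. Another 14 of the 243 members shared a 20-mer with annotated U2 snRNA genes. Over single-copy members the share was 1.08% (0.764 to 1.49), and with low-copy flanks it was 0.426%, or 12 of 2819. Over single-copy peaks the difference from coding exons was 1.05 points (Fisher's exact test, adjusted p = 7.00e-15) and that from peaks near splice sites was -0.22 points (adjusted p = 0.665). ASC libraries held fewer peaks than C2C12 libraries, between 7925 and 19448, and a position missing from them may lie below their call limit.

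The members on G runs and those with U2 sequence also had higher correlations between the C2C12 libraries than single-copy members. On G runs the reads were equal in 108 of 191 members (56.5%) and the log2 reads of the libraries correlated with r = 0.936. Over the 33 members with a U2 sequence r was 0.889, with medians of 12 reads in both libraries and equal reads in 11 members (33.3%). Over single-copy members r was 0.459 and reads were equal in 22.5%. Their medians were 7 and 8 reads, near the lowest value of 6, and r depends on the spread of the reads. The highest single-copy members that were also ASC shared peaks were in Pde4d (17 and 17 reads), Arvcf (16 and 16), Adk (15 and 16), Best3 (15 and 14) and Pphln1 (15 and 14), each called in all 4 ASC libraries. Of these 5, all but Best3 hold a U2 snRNA stretch that begins inside the peak. They are shown from 8 nt before the stretch, with its first 20 nt in capitals.
Pde4d, chr13:109791924-109791953, plus strand: ttattcaaATCGCTTCTCGGCCTTTTGGct
Arvcf, chr16:18360858-18360887, plus strand: agcaaaggATCGCTTCTCGGCCTTTTGGct
Adk, chr14:22068503-22068532, plus strand: aggctggaATCGCTTCTCGGCCTTTTGGct
Pphln1, chr15:93263787-93263816, plus strand: taggcagaATCGCTTCTCGGCCTTTTGGct
The 20 capitals are the same in all 4 genes, and reads of U2 snRNA itself would match them. U2 snRNA pairs with the branch point of introns in the spliceosome. The 12 single-copy members with low-copy flanks among the ASC shared peaks had 6 to 13.5 reads in either library and were led by Cdk8, a kinase of the Mediator complex, with 12.5 and 13.5.

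Other members held interspersed repeated sequence. A stretch of 16 nt, shown because it was the most common one among the 1890 members that were not single-copy, was found within 20 nt of 249 of them, in 242 genes, with a median of 7 reads in both libraries and none among the ASC shared peaks.
Most common 16 nt: tggctgtcctggaact
The first 20 nt of 764 members (14.4%) lay in the spliced transcript of another gene. This share was 13.8% in coding exon peaks, 8.02% near splice sites and 4.37% in 3′ UTRs. The first 20 nt lay in transcripts of at most 5 other genes for 304 members and of more than 50 for 243. Among the former, 8 members in Gm2792 matched Tulp4, 5 in Slc22a27 matched Eef1a1, the translation elongation factor, and 5 in Sdccag8 matched Hmga2. Whether reads at such members came from the intron or from the other gene cannot be told apart here.

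By function, deep intron peaks were counted in lists of genes that act in nuclear RNA processing and in muscle, and each count over all genes of a list is set beside the 9.01% of all protein-coding genes, and each count over its genes with a shared peak of any of the 4 classes beside the 43.8% of the 4605 such genes. Of 25 genes known for detained introns or nuclear speckles, 16 had a shared peak and 12 held a member. In Ddx39b all 4 members lay in intron 6, and in Luc7l2, a U1 snRNP-associated protein, all 5 lay in intron 4, the highest with 19 reads in both libraries. Rbm25, a splicing regulator, held 6 members, all in intron 1. Srrm2, a scaffold of nuclear speckles, held 5 deep intron members beside 42 coding exon peaks. Ogt, Acin1 and Thrap3 held 3 each, Bclaf1 held 2, and Nktr, Luc7l3, Srrm1 and Ccnl2 held 1 each. Of 13 SR proteins and relatives 7 had a shared peak and 4 held members, with 1 each in Srsf3, Srsf10 and Tra2a and 2 in Srsf4, and of 24 hnRNP genes 19 had a shared peak and 6 held members, with 2 in Hnrnpc and 1 each in Hnrnpa2b1, Hnrnpd, Hnrnpf, Pcbp2 and Ptbp1. The mean reads of these SR and hnRNP members were between 6 and 9.

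Among 18 m6A genes 11 had a shared peak and 5 held members. Fto, an m6A demethylase, held 16, of which 8 lay in intron 12, with 14 and 16 reads at the highest. Ythdf3, a cytoplasmic reader, held 5, with 4 in intron 4, and Alkbh5, Igf2bp2 and Igf2bp3 held 1 each. Of 17 myogenic regulators 10 had a shared peak and 5 held members. Itga7, a laminin receptor of muscle, held 2 in intron 1, the higher with 16 and 17 reads. Mef2d held 3, and Mef2a and Ncam1 held 1 each.

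Of 34 matrix and cytoskeleton genes 31 had a shared peak and 13 held members, with 75 in all. Myh9, nonmuscle myosin IIA, held 16 and Dst, a giant cytoskeletal linker, held 15, of which 9 lay in intron 6. Its highest had 17 and 19 reads. Col5a1, Macf1 and Ahnak held 7 each. Col6a3 held 5, Tpm1 held 2, and Sparc, Flna, Vim and Tpm4 held 1 each. Shared coding exon peaks numbered 53 in Dst, 151 in Ahnak and 77 in Fn1, which held 4 members. Of 18 cell cycle and p53 genes 12 had a shared peak and 6 held members, Cdk6 11, Mdm4 5, Cdkn1a 3, and Cdk2, Trp53 and Mki67 1 each, and 9 of these 22 members were single-copy. Of 12 genes that the study followed up by PCR or showed as tracks 9 had a shared peak and 5 held members, which were Mdm4, Ythdf3, Fn1, Nek1 and Ybx1. The study chose several of these genes from its own binding data, so this count is not independent evidence. Introns with an annotated miRNA on the same strand held 190 members, 35 of them within 1000 nt of the miRNA, and introns with a snoRNA held 66. In both counts 45 members lay in the long intron of Gm20388.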

How the data were processed

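Peak lists of 2 C2C12 libraries, with 4 ASC48 libraries for comparison, were analysed. The authors trimmed reads with Cutadapt 1.15, removed pre-rRNA reads, placed the rest on mm9 with Bowtie 1.2.3, allowing several positions per read, and called peaks per library with Piranha in 20-nt bins at p 0.001, settings named for ASCs. Handling of duplicate reads is not given in the sources used here. The deposited signal is reads per bin, not normalized, and the deposited p-value is Piranha's own, unadjusted. It was used for filters only.

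Peaks were placed with Python 3.11.15, numpy, pandas and pysam on NCBIM37 (mm9) and GENCODE vM1. RefSeq (GRCm38) gave names and the genes it places inside a host gene. Where genes overlapped, the shortest host was taken (85 members had several). Shares carry Clopper-Pearson intervals, and the difference of shares a Newcombe interval. Fisher's exact tests and permutation tests were run across peaks, with Benjamini-Hochberg adjustment. Peaks of 1 gene are not independent, and with 1 cell line no conditions were compared. Overlap, position class and motif search were tested on made data with known answers.

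Genes named are the 10 with most members, the 5 introns with most, the 10 highest peaks (all, and single-copy), the 5 deepest, the 5 with the largest ratio between libraries and every list gene with a member. Ties went by position. Other genes named, as the dense introns, low-copy flanks, transcript matches and UGCCU, were chosen after their values were seen. Members and lists were chosen with earlier results of these data known. Some genes and 1 sequence that these rules select are not reported here.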

Additional observations from a re-analysis of the deposited data

How the results depend on the processing

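Of 9 results under the alternatives, the number of members was 5305 and the number of host genes 2016. Requiring p at most 0.00001 in both libraries left 572 members in 370 genes, 12.9% of shared peaks, with 26.05% in first introns, DRACH in 55.8%, a median of 12 reads and 10.8% in ASC shared peaks. Requiring at least 10 reads in both left 600 in 383 genes, 11.9%, with 26.3%, 55.3%, 12 reads and 11.3%. Taking only peaks whose first 20 nt occur a single time left 3487 in 1235 genes, 20.001%, with DRACH in 61.4% and 2.95% in ASC. Leaving out 1 replicate gave, as lowest and highest, 13817 and 17626 peaks in 3750 and 4861 genes, 22.8% and 24.5%, first introns 29.8% and 30.3%, DRACH in 63.6% and 67.2%, ASC 1.498% and 1.87%, and DRACH differences of 2.92 and 4.35 points from peaks near splice sites and 0.47 and 3.84 points from coding exons. A stricter distance of over 500 nt gave 16.4% of shared peaks and 33.6% in first introns, exons of protein-coding genes only gave 19.3%, and 1 peak per gene gave 30.9%, 26.4% in first introns, DRACH in 64.9%, 8 reads and 9.62% in ASC. Counting the replicate 2 list gave 8 reads, and leaving out G runs gave 1.17% in ASC.

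The next alternatives were chosen after seeing the data. Low-copy flanks left 2819 members in 961 genes, 17.3%, with 0.426% in ASC. Plus-strand RNA alone gave 2977 in 1015 genes, 19.6%, first introns 30.1%, DRACH 60.7%, 8 reads and ASC 3.86%, and minus-strand RNA alone 2328 in 1001 genes, 16.8%, 34.5%, 66.2% and 5.50%. Without Ext1 the share was 17.7% with 29.6% in first introns, and without peaks in other transcripts it was 22.1% with 33.3%, DRACH 60.7% and ASC 3.85%.

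The difference in DRACH from coding exons, 0.12 points, had no stable direction. It was -6.27 points at the stricter p, -6.73 at 10 reads, -2.17 at single occurrence, -1.15 with low-copy flanks, -2.26 on the plus strand, 3.17 on the minus strand, -0.12 without Ext1 and -2.92 without peaks in other transcripts. By Fisher's exact test, unadjusted, p was 0.013 at the stricter p and 0.0064 at 10 reads, both with fewer DRACH matches in deep introns. With more matches there, the same test gave 0.015 on the minus strand and 1.2e-13 over all replicate 2 peaks. The difference from peaks near splice sites was -0.48 at the stricter p and -1.19 at 10 reads. The causes were not tested. No paired analysis was possible because no groups of samples with shared replicate numbers were compared. Reads of deep intron and coding exon peaks were paired by gene instead. The lowest listed value of 6 reads limits what could be called.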
